A study of Mus musculus with 6 samples.

Results

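The genes of myocardin, SRF and the other transcription factors that set smooth muscle gene expression were followed in the pregnant mouse uterus: Myocd, Srf, Mef2a, Mef2c, Mef2d, Tead1, Tead3, Gata6, Klf4 and Klf5. They were taken by symbol, 10 of the 55055 genes in the deposited table, and all 10 had enough counts to be tested. RNA was taken from pregnant animals labelled E19.5, from the myometrium, which is the muscular wall of the uterus (the series design gives gestational day 19). The groups were 3 TCF23 WT animals and 3 TCF23 KO animals, whose Tcf23 gene, for a basic helix-loop-helix protein, had been knocked out with CRISPR/Cas9, with 1 poly(A)-selected library per animal. The sources used here name no treatment and no tissue-specific driver, and do not give strain, maternal age, the number of knockout lines or the genotype of the fetuses.

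Libraries held 39939686 to 65036402 counts. Tcf23 had 3360 to 5970 counts in wild-type libraries and 0, 2 and 1 in knockout replicates 1, 2 and 3. The 10 smooth muscle markers that check the tissue label were present in every library, with a summed CPM (counts scaled to a fixed library total, here to all counts of a library) of 28207 to 32538 in wild-type. Those sums were 34859, 40296 and 16307 in knockout replicates 1, 2 and 3, so knockout replicate 3 lay below every other library. Placental markers summed to 331.2 CPM in knockout replicate 1 and to 16.2 to 69.9 CPM in the others. Log2 changes were positive for 12 of 12 leukocyte (median 0.32), 8 of 8 pericyte (median 0.44) and 7 of 7 tested erythroid markers (median 0.82), and negative for 8 of 9 mesothelial markers (median −2.87). The mesothelial median level in wild-type replicate 3 (−1.62, log2 relative to the wild-type mean) was like that of the knockout libraries (−1.69 to −1.34) and unlike wild-type replicates 1 and 2 (1.49 and 0.24). Of 18 striated muscle markers, 7 were tested and 6 of these had positive log2 changes. At an unadjusted p under 0.05 edgeR counted 3 of the 7, against 8.56% of all tested genes (5.27% higher in knockout). These were Tnnt3 (1.53), Acta1 (1.36) and Ckm (1.32), which did not pass an adjusted p of 0.05 (edgeR adjusted p = 0.357, 0.515 and 0.554). The groups overlapped for Acta1 and Ckm. Myod1, Myog, Pax7 and Myh4, which define skeletal muscle and its precursors, had no count in any library. Others on the list were detected at low levels in every library, such as Myf5 (0.050 to 0.32 CPM), Myh2 (0.018 to 0.54 CPM) and Ttn (0.30 to 0.95 CPM). The part of these cell types in the levels below was not tested.

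SRF, serum response factor, is a MADS-box protein that binds the CArG box, a short AT-rich DNA element, in front of contractile, cytoskeletal and growth-response genes. Myocardin, the product of Myocd, is a coactivator that binds SRF and drives the smooth muscle contractile programme, while ternary complex factors compete with it for SRF and turn the same protein to growth-response genes. MEF2 proteins are related MADS-box factors, TEAD proteins carry the Hippo pathway coactivators YAP and TAZ to DNA, GATA6 is a zinc-finger factor of differentiated smooth muscle, and KLF4 and KLF5 are Kruppel-like factors, of which KLF4 is known to oppose myocardin.

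The DNA elements themselves can be read in the RefSeq promoter windows (build GRCm38.p6, 250 bases before to 50 after a start site), which matched 6 of the 10 genes by symbol: Srf, Mef2a, Mef2c, Mef2d, Tead3 and Klf4. Sequences shown run 5′ to 3′ on the strand of the gene, with the element in capitals. The 250 bases in front of Srf (chr17:46556163-46556412, minus strand) are shown because they hold 2 CArG boxes, CCATATAAGG starting 82 bases and CCATAAAAGG starting 62 bases before the start site, letters that match the element SRF reads.
Srf: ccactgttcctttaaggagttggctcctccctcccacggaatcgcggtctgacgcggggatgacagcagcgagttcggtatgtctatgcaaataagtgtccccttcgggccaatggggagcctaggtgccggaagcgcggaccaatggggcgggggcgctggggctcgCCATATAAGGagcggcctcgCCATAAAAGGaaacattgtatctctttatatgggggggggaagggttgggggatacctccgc

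Mef2a is shown from 120 bases before its start site (chr7:67372841-67372978, minus strand) because a MEF2 site lies across the start site, and Tead3 (chr17:28350701-28350730, minus strand) because 2 copies of CATTCC, the core bound by TEAD proteins, stand 3 bases apart in front of 1 of its start sites.
Mef2a: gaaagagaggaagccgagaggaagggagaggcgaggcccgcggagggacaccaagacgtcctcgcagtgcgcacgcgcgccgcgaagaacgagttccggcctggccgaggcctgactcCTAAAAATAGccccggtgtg
Tead3: ccgggctCATTCCgtaCATTCCggccatcc

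Both strands were searched for 5 elements: the CArG box, the MEF2 site, CATTCC, the GATA core AGATAA and the Kruppel-like core CACCC. Among all 32851 windows, 1.63% held a CArG box, 3.19% a MEF2 site, 14.7% CATTCC, 11.2% AGATAA and 57.5% CACCC. Counted by gene, as the factor genes are, the shares were 1.6%, 2.19%, 15.1%, 8.6% and 66.8% of the 12992 tested genes with a window. Of the 6 matched factor genes, 1 held a CArG box (Srf), 1 a MEF2 site (Mef2a), 2 held CATTCC (Tead3 and Mef2c), 0 held AGATAA and 4 held CACCC. A match is a run of letters and not evidence of binding, and elements that depart from the searched letters are not counted.

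Loss of Tcf23 left no detectable genotype difference in the 10 factor genes at this sample size. By edgeR's quasi-likelihood test 0 of 10 passed a Benjamini-Hochberg adjusted p of 0.05 over all genes, where 0.0204% of 19599 tested genes passed (all lower in knockout). With the replicate number as a block 0 of 10 passed as well, against 0.0357% (0.0102% higher and 0.0255% lower). The smallest adjusted p was 0.787 by edgeR without the block, for Myocd, and 0.583 with it, for Tead1. At an unadjusted p under 0.05 edgeR counted 0 of 10, against 8.56% of all tested genes (5.27% higher and 3.29% lower in knockout). DESeq2 called 0 of 10 against 1.92% (1.24% higher and 0.677% lower). Log2 changes were positive in 5 (Myocd, Klf5, Tead3, Gata6 and Klf4) and negative in 5 (Tead1, Mef2d, Mef2a, Mef2c and Srf), with a median of 0.01, beside 0.01 over all tested genes. Groups did not overlap for 1 of 10, Mef2d, against 14.2% of all tested genes (7.22% higher and 7.01% lower in knockout).

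**Figure D1:**
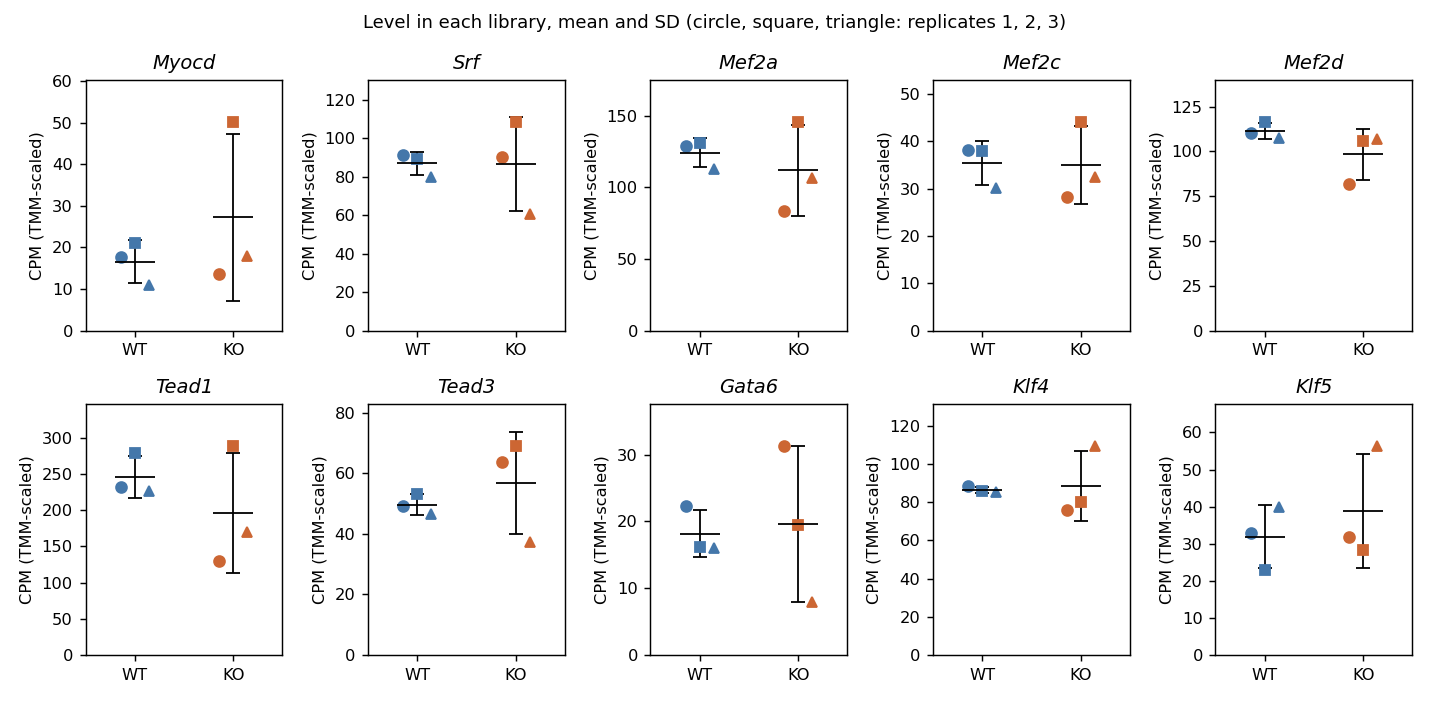
Level of each gene in CPM scaled by TMM (y axis, from 0) in the 3 wild-type (blue) and 3 knockout (orange) libraries, with circle, square and triangle for replicates 1, 2 and 3 and bars for the mean and SD. Knockout points spread more widely than wild-type points for all 10 genes, and the highest Myocd point is knockout replicate 2 at 50.2 CPM.

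Knockout animals differed more among themselves than wild-type animals did. The SD of log2 CPM was larger in knockout than in wild-type for 10 of 10 genes, as it was for 79.1% of the 15030 genes that averaged 1 CPM or more and had no 0. The ratio of the highest to the lowest knockout library ran from 1.30 for Mef2d to 3.95 for Gata6, beside a median of 1.45 over those genes. A larger ratio than that of Gata6 was seen in 2.77% of them, and a larger one than that of Myocd (3.71) in 3.22%. In bulk tissue, fewer cells of a type and less RNA per cell cannot be told apart.

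Myocd (ENSMUSG00000020542, mm10 chr11:65176561-65269989, minus strand) was at 17.7, 21.0 and 10.9 CPM, scaled by TMM as are all levels of single genes from here on, in wild-type replicates 1, 2 and 3. In knockout replicates 1, 2 and 3 it was at 13.5, 50.2 and 18.0 CPM. Replicate 2 of the knockout was above every other library, while replicates 1 and 3 lay within the wild-type range. The log2 change was 0.72 ± 0.49 (SE; 16.5 ± 5.15 and 27.3 ± 20.0 CPM, mean ± SD, n = 3 per genotype, edgeR adjusted p = 0.787). Without knockout replicate 2 it was −0.06, so the higher knockout mean CPM rests on that library. Smooth muscle markers were also highest in knockout replicate 2, at a sum of 40296 CPM against 16307 to 34859 in the other 5 libraries. Pericyte markers, for the mural cells of small vessels, were highest there too, at a sum of 891.5 CPM against 417.1 to 577.2, with all 8 markers detected. Endothelial markers summed to 938.5 CPM there against 515.2 to 794.8. Not every marker followed its sum. Cnn1, Tagln and the pericyte marker Ndufa4l2 were highest in knockout replicate 1. They were at 2448, 83.3 and 13.5 CPM in it, against 1974, 62.0 and 12.6 in knockout replicate 2. The endothelial markers Kdr and Sox17 were highest in wild-type replicates 2 and 3 (96.2 and 31.1 CPM, against 92.9 and 26.3 in knockout replicate 2). The skeletal actin gene Acta1 was at 148.6 CPM in knockout replicate 2 and at 20.6 to 60.1 CPM elsewhere, and Actc1 was also highest there (7.05 CPM). Other striated markers were not: Tnnt3 and Ckm were highest in knockout replicate 1 (33.9 and 3.23 CPM, against 13.3 and 2.33 in replicate 2). Tnni2 (2.51 CPM) and Tnnt2 (1.37 CPM) had their lowest level of all libraries in knockout replicate 2. The part of smooth muscle, pericyte, endothelial or striated muscle RNA in the Myocd level was not tested. Gene counts do not separate the splice forms of myocardin known from smooth and cardiac muscle.

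Srf (ENSMUSG00000015605, chr17:46548329-46556175, minus strand), whose 2 CArG boxes are printed above, was at 91.4, 89.3 and 80.1 CPM in wild-type replicates 1, 2 and 3. The knockout values were 90.3, 108.7 and 60.6 CPM, on either side of the wild-type range. The means were 86.9 ± 6.01 and 86.5 ± 24.3 CPM, a log2 change of −0.01 ± 0.21 that turned to 0.03 with upper-quartile scaling (edgeR adjusted p = 0.999). The lowest library, knockout replicate 3, was also the one with the lowest smooth muscle markers. Within a library, the length-corrected ratio of Myocd to Srf was 0.0874, 0.106 and 0.0612 in wild-type and 0.0675, 0.208 and 0.134 in knockout replicates 1, 2 and 3. The log2 difference of 0.58 was larger than the SD between wild-type animals (0.40) and smaller than that between knockout animals (0.82), and did not pass (exact two-sided permutation p = 0.4, adjusted p = 0.6 over 6 ratios; 3 against 3 cannot go below 0.1). It was 0.20 without knockout replicate 2 and 1.01 without knockout replicate 1. The paired exact p over libraries of the same replicate number was 0.5.

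Among the MEF2 genes, Mef2a (ENSMUSG00000030557, chr7:67231163-67372858, minus strand) was at 129.2, 131.0 and 112.8 CPM in wild-type replicates 1, 2 and 3. Knockout replicates 1, 2 and 3 had 83.5, 146.0 and 106.3 CPM, the highest and the lowest values of the 6 libraries (log2 −0.15 ± 0.21). Mef2c (ENSMUSG00000005583, chr13:83504034-83667080, plus strand), a factor also active in endothelial and blood cells, followed the same order of knockout libraries. Its levels were 38.2, 38.04 and 30.2 CPM in wild-type and 28.2, 44.2 and 32.6 CPM in knockout (log2 −0.02 ± 0.19, and 0.01 with upper-quartile scaling).

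Mef2d (ENSMUSG00000001419, chr3:88142372-88172086, plus strand), the most abundant MEF2 transcript per length, was the gene whose groups did not overlap. It had 110.1, 116.7 and 107.7 CPM in wild-type replicates 1, 2 and 3 and 82.0, 106.0 and 107.0 CPM in knockout. The gap between the nearest libraries was small, and the log2 change of −0.18 ± 0.15 did not pass (111.5 ± 4.67 and 98.4 ± 14.2 CPM, edgeR adjusted p = 0.838). Without knockout replicate 1 it was −0.06.

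Per length, Mef2d made up 63.2 ± 1.54% of the summed MEF2 transcripts in wild-type and 62.4 ± 4.02% in knockout (SD, n = 3). Mef2a made up 28.7 ± 0.952% and 28.5 ± 3.44%, and Mef2c 7.64 ± 0.650% and 8.38 ± 0.806%. Mean shares of the 2 genotypes thus differed by less than 1 knockout SD for each of these genes. The length-corrected ratio of Mef2c to Mef2a was 0.276, 0.271 and 0.2497 in wild-type and 0.315, 0.283 and 0.286 in knockout replicates 1, 2 and 3, without overlap (log2 difference 0.15, and 0.10 without knockout replicate 1; exact two-sided permutation p = 0.1, the smallest possible, adjusted p = 0.3). Between libraries with the same replicate number the paired exact p was 0.25, the smallest that 3 pairs allow. Mef2b, the remaining MEF2 gene, was under 1% of the family in every library. These shares depend on the length of all annotated exons: before division by length, Mef2a (124.4 CPM) stood above Mef2d (111.5 CPM) in the wild-type means.

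The TEAD genes Tead1 and Tead3 took different orders over the knockout libraries. Tead1 (ENSMUSG00000055320, chr7:112679318-112906807, plus strand) had the highest CPM of the 10 genes, at 232.3, 278.6 and 226.4 CPM in wild-type replicates 1, 2 and 3. It was at 129.9, 288.7 and 170.1 CPM in knockout, so that replicates 1 and 3 lay below the wild-type range and replicate 2 above it. The log2 change was −0.32 ± 0.29 (245.8 ± 28.6 and 196.2 ± 82.5 CPM, edgeR adjusted p = 0.864), −0.09 without knockout replicate 1 and −0.71 without knockout replicate 2.

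Tead3 (ENSMUSG00000002249, chr17:28331671-28350817, minus strand), a TEAD gene known for its expression in the placenta, was at 49.2, 53.2 and 46.5 CPM in wild-type. Its levels were 63.7, 69.0 and 37.4 CPM in knockout replicates 1, 2 and 3, replicates 1 and 2 above the wild-type range and replicate 3 below it (log2 0.19 ± 0.23, edgeR adjusted p = 0.908; 0.03 without knockout replicate 2 and 0.42 without knockout replicate 3). The length-corrected ratio of Tead3 to Tead1 was 0.428, 0.386 and 0.415 in wild-type and 0.991, 0.483 and 0.445 in knockout, higher in 3 of 3 knockout libraries. The log2 difference of 0.54 had an exact two-sided permutation p of 0.1, the smallest possible for 3 against 3 (adjusted p = 0.3). Between libraries with the same replicate number the paired exact p was 0.25, the smallest that 3 pairs allow. The log2 difference fell to 0.18 without knockout replicate 1, the library with the most placental marker RNA. Of the 16 placental markers 9 were tested, and Prl3d1 and Cts7 were at 0 in all libraries. Tpbpa made up most of that RNA, at 243.7 CPM there and at 0.244 to 33.1 elsewhere. Of the others averaging 1 CPM or more, Prl2c2, Prl8a9 and Peg10 were also highest there (32.2, 9.29 and 40.1 CPM). Psg21 and Prl3b1 were highest in wild-type replicate 2 (7.48 and 4.30 CPM, against 3.16 and 2.19 in knockout replicate 1). The part of placental RNA in the ratio was not tested.

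**Figure D2:**
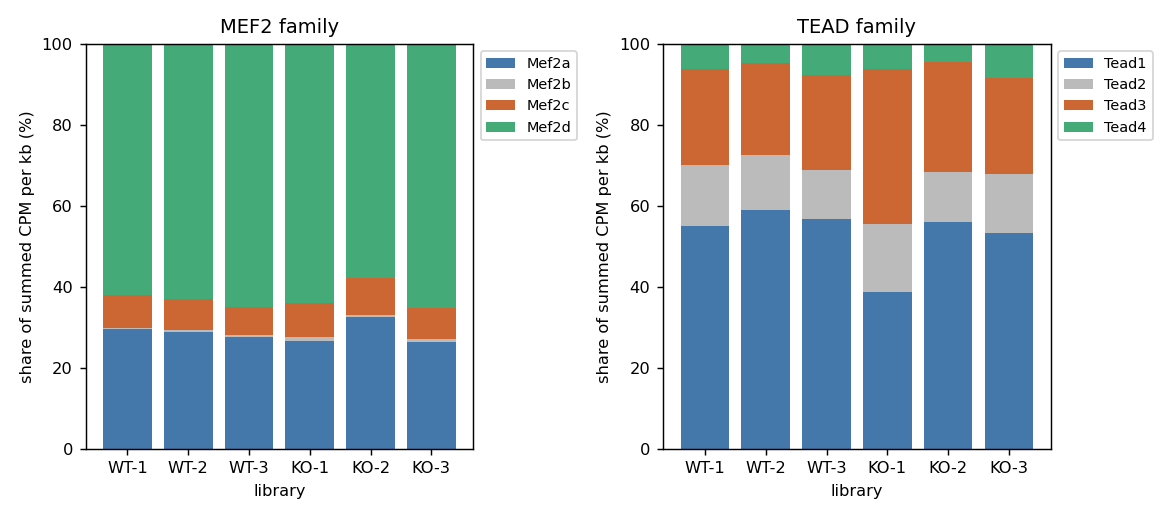
Share of each gene in the summed CPM per kilobase of its family (y axis, %) in each library (x axis), for the 4 MEF2 and the 4 TEAD genes. Mef2d takes the largest part of every MEF2 column, and in knockout replicate 1 Tead1 and Tead3 take nearly equal parts, 38.6% and 38.3%. Shares depend on the length of all annotated exons: before division by length, Tead1 was at 129.9 and Tead3 at 63.7 CPM in that library.

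Gata6 (ENSMUSG00000005836, chr18:11052064-11085635, plus strand) had the widest spread between knockout animals. It was at 22.3, 16.2 and 16.1 CPM in wild-type replicates 1, 2 and 3, and at 31.3, 19.53 and 7.93 CPM in knockout. Replicate 1 of the knockout was the highest and replicate 3 the lowest of all 6 libraries. The log2 change of 0.11 ± 0.43 (18.2 ± 3.57 and 19.6 ± 11.7 CPM, edgeR adjusted p = 0.983) took either sign: −0.40 without knockout replicate 1, 0.48 without knockout replicate 3, −0.03 by limma-voom and −0.07 with the replicate number as a block.

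The Kruppel-like factor genes were highest in knockout replicate 3, where smooth muscle markers were lowest. Klf4 (ENSMUSG00000003032, chr4:55527143-55532466, minus strand) was nearly equal in the wild-type libraries, at 88.4, 85.8 and 85.4 CPM, a highest-to-lowest ratio of 1.04 that 96.6% of genes exceeded. It was at 76.0, 80.2 and 109.5 CPM in knockout replicates 1, 2 and 3, replicates 1 and 2 below and replicate 3 above all wild-type values (log2 0.03 ± 0.16). Klf5 (ENSMUSG00000005148, chr14:99298691-99315036, plus strand), a factor also made by epithelium, was at 32.9, 22.9 and 39.9 CPM in wild-type and 31.9, 28.2 and 56.4 CPM in knockout (log2 0.28 ± 0.30, and −0.09 without knockout replicate 3).

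Uterine epithelial markers, 13 of 13 tested, summed to 2384, 1637 and 3695 CPM in wild-type replicates 1, 2 and 3 and to 2645, 1032 and 4580 CPM in knockout. Klf5 and these markers thus shared their 2 highest libraries (knockout and wild-type replicate 3) and their 2 lowest (replicate 2 of each genotype). Klf4 shared their highest library, knockout replicate 3, but not the rest of the order. In wild-type it was lowest in replicate 3 (85.4 CPM), where these markers were highest. The part of epithelial RNA in the Klf5 and Klf4 levels was not tested. The length-corrected ratio of Klf4 to Klf5 overlapped between genotypes, at 3.66 to 6.38 in wild-type and 3.31 to 4.85 in knockout (log2 difference −0.24, and −0.03 without wild-type replicate 2; exact two-sided permutation p = 0.5, adjusted p = 0.6). Between libraries with the same replicate number it was lower in knockout in 3 of 3, with a paired exact p of 0.25, the smallest that 3 pairs allow.

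**Figure D3:**
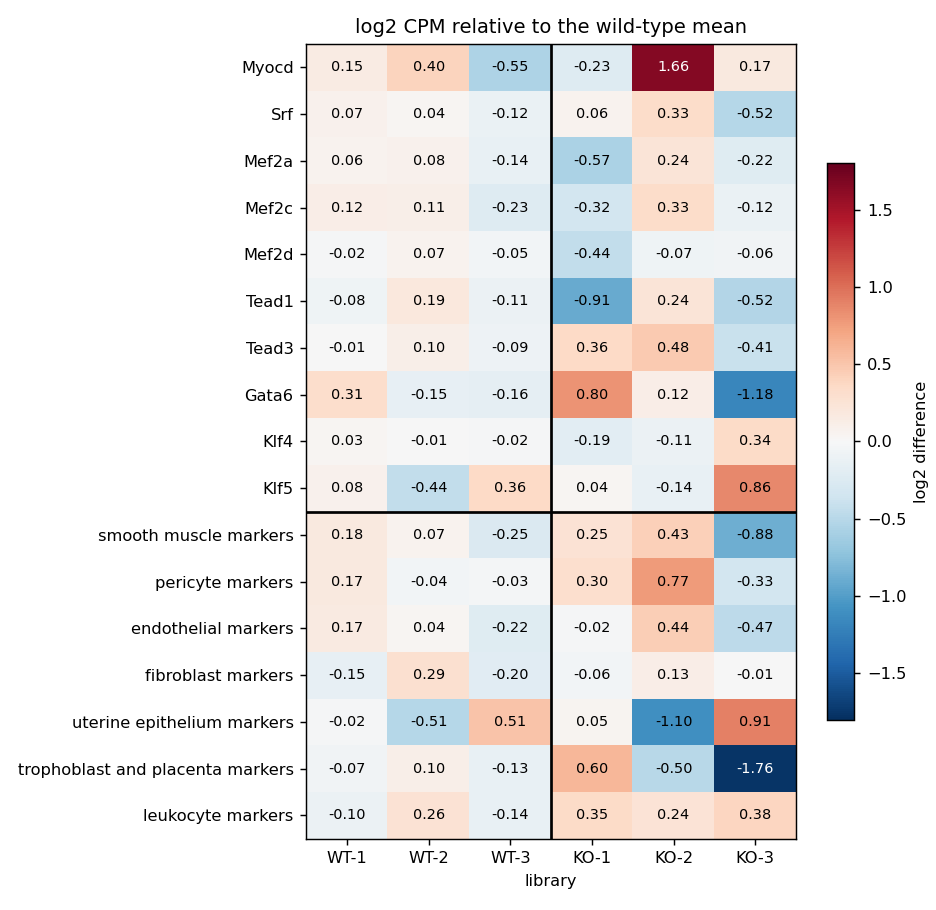
Log2 CPM of the 10 genes in each library (columns) relative to the wild-type mean, above the same for the medians of 7 marker lists. Red is higher and blue lower. Knockout replicate 2 is red for Myocd (1.66), knockout replicate 1 is blue for Tead1 (−0.91), and knockout replicate 3 is blue for Gata6 (−1.18) and the smooth muscle markers (−0.88) and red for Klf5 (0.86).

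The 10 genes fell into different orders over the knockout libraries. Knockout replicate 2 was the highest of the 3 for 6 of them (Myocd, Srf, Mef2a, Mef2c, Tead1 and Tead3), beside 33.8% of all 15030 genes, and the lowest for Klf5 alone, beside 35.2%. Replicate 1 was the lowest for 6 (Myocd, Mef2a, Mef2c, Mef2d, Tead1 and Klf4), beside 34.4%, and the highest for Gata6 alone, beside 34.6%. Replicate 3 was the lowest for Srf, Tead3 and Gata6, beside 30.5%, and the highest for Mef2d, Klf4 and Klf5, beside 31.6%. Among the 10 genes, the profiles over the 6 libraries most alike were those of Mef2a and Mef2c, whose log2 levels, each centred on its own mean, differed by a root mean square of 0.10. Those of Srf and Tead3 came next, at 0.12. The least alike were Myocd and Gata6, at 0.93, and Myocd and Klf5, also 0.93.

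By the same measure over 15053 other genes averaging 1 CPM or more, the genes most like Myocd were Cthrc1 (0.17), Lypd6 (0.18), C1qtnf2 (0.18), Kcnt2 (0.20) and Mpp3 (0.20), against a median of 0.73. All 5 were highest in knockout replicate 2, which follows from choosing them by likeness to Myocd. Cthrc1, for example, was at 8.78 CPM there and 2.48 to 4.07 elsewhere. Those most like Srf were Evc2 (0.02), Pcdhga11 (0.04), Prdm11 (0.05), Pofut2 (0.05) and Tcea2 (0.05), against a median of 0.34. Evc2, for example, was at 21.6, 20.8 and 18.9 CPM in wild-type replicates 1, 2 and 3 and 21.6, 25.4 and 14.9 CPM in knockout.

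Levels were also set against the summed smooth muscle markers. All 10 of these markers are themselves on the list of contractile targets of myocardin and SRF, so the denominator is not independent of the factors. Srf per 1000 CPM of smooth muscle markers was 2.77, 2.75 and 2.88 in wild-type and 2.56, 2.69 and 3.82 in knockout replicates 1, 2 and 3, so that knockout replicate 3, the lowest in level, was the highest in this ratio. For Gata6 the ratio was 0.676, 0.499 and 0.579 in wild-type and 0.889, 0.483 and 0.499 in knockout, and its SD between knockout animals was 0.50 on the log2 scale, against 1.01 for the level itself. The knockout SD was smaller for the ratio than for the level in 4 of 10 genes (Myocd, Srf, Tead3 and Gata6) and larger in 6 (Mef2a, Mef2c, Mef2d, Tead1, Klf4 and Klf5). Klf5 stood at 3.55 in knockout replicate 3 and at 0.698 to 1.43 elsewhere. For Myocd the ratio was 0.537, 0.647 and 0.392 in wild-type and 0.384, 1.24 and 1.13 in knockout replicates 1, 2 and 3. Knockout replicates 2 and 3 thus lay above the wild-type range of this ratio and replicate 1 just below it. Its log2 difference was 0.66, and 0.36 without knockout replicate 2 (exact two-sided permutation p = 0.4 with all libraries).

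Groups did not overlap in this ratio for 1 of 10 genes, Tead3, against 6.1% of all tested genes (4.54% higher in knockout). Tead3 was at 1.49, 1.64 and 1.67 per 1000 marker CPM in wild-type and 1.81, 1.71 and 2.36 in knockout replicates 1, 2 and 3. The log2 difference was 0.28, and 0.14 without knockout replicate 3, with an exact two-sided permutation p of 0.1, the smallest possible, and an adjusted p of 1 over the 10 genes. Between libraries with the same replicate number the paired exact p was 0.25, the smallest that 3 pairs allow.

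**Figure D4:**
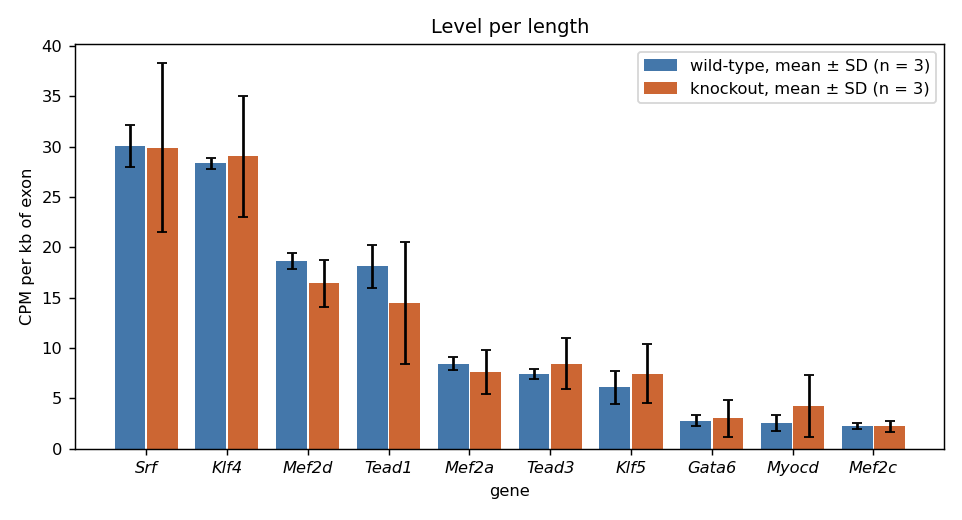
CPM per kilobase of annotated exon (y axis, from 0) of each gene in wild-type and knockout myometrium, bars for the mean and error bars for the SD of 3 libraries. Srf and Klf4 stand highest and Gata6, Myocd and Mef2c lowest in wild-type, and the knockout error bars are the wider for each gene.

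Per length, the factors ranged over more than an order of magnitude. In wild-type, Srf was at 30.0 ± 2.08 and Klf4 at 28.4 ± 0.538 CPM per kilobase of exon (mean ± SD, n = 3), and their libraries overlapped. Next came Mef2d at 18.6 ± 0.780 and Tead1 at 18.1 ± 2.108, again overlapping. Mef2a (8.47 ± 0.683), Tead3 (7.39 ± 0.504) and Klf5 (6.13 ± 1.64) formed a run in which each overlapped its neighbour. Lowest were Gata6 (2.80 ± 0.549), Myocd (2.57 ± 0.801) and Mef2c (2.26 ± 0.294), also overlapping in turn. Srf thus stood above 92.0% of tested genes per length and Myocd, its coactivator, above 53.1%, both averaged over the 6 libraries. Exon length covers all annotated transcripts of a gene, so genes with long alternative exons, such as Mef2c, read low on this scale.

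No listed partner of SRF or MEF2 passed the test. Of 14 tested SRF cofactors and antagonists, 6 had positive and 8 negative log2 changes, with a median of −0.01 (0.02 with upper-quartile scaling, −0.11 without knockout replicate 2 and 0.04 without knockout replicate 1). The myocardin-related coactivator gene Mrtfa was at 44.8 ± 1.89 and 44.6 ± 2.24 CPM (log2 −0.01 ± 0.11) and Mrtfb at 63.0 ± 1.85 and 57.2 ± 15.6 CPM (log2 −0.14 ± 0.21). Hopx, which encodes a homeodomain protein that binds SRF and blocks it from DNA, had the smallest p of the list. It was at 5.08, 5.11 and 5.05 CPM in wild-type and 8.81, 11.02 and 8.22 CPM in knockout replicates 1, 2 and 3, without overlap, and did not pass (log2 0.88 ± 0.18, edgeR adjusted p = 0.232). Next by p were Mamstr, Scai and Elk4, with log2 changes of 0.45, −0.54 and −0.40.

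Of 15 tested MEF2 cofactors and regulators 0 passed, 8 positive and 7 negative, with a median of 0.00 (−0.04 to 0.07 with 1 library left out). Ppp3ca, a catalytic subunit gene of the phosphatase calcineurin, which activates MEF2, was at 204.7 to 224.7 CPM in wild-type and 142.1 to 189.6 CPM in knockout (log2 −0.36 ± 0.15, edgeR adjusted p = 0.568). Hdac7, for a deacetylase that represses MEF2, was at 114.6 ± 9.92 and 166.0 ± 52.0 CPM (log2 0.53 ± 0.24, edgeR adjusted p = 0.611), with overlap.

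Coactivators of the TEAD factors and Hippo kinases had 0 calls among 17 tested (Vgll1 and Vgll2 of the 19 listed had too few counts). Log2 changes were negative in 15 and positive in 2, where 52.1% of all tested genes were positive. The median was −0.16, −0.06 without knockout replicate 1 and −0.07 without wild-type replicate 1. Wwtr1, which encodes TAZ, was at 257.7, 236.0 and 212.9 CPM in wild-type and 131.0, 232.9 and 141.5 CPM in knockout replicates 1, 2 and 3, low in the libraries where Tead1 was low (log2 −0.48 ± 0.24, edgeR adjusted p = 0.649). Yap1 was at 145.4 ± 17.5 and 134.6 ± 4.77 CPM. The Hippo kinase gene Stk3 was at 51.3 to 55.8 CPM in wild-type and 40.2 to 46.1 CPM in knockout, and its adaptors Mob1a and Mob1b had log2 changes of −0.29 and −0.27, also without overlap and without passing (edgeR adjusted p = 0.534, 0.651 and 0.758). These 3 were the only genes of the 17 without overlap, against 14.2% of all tested genes (7.01% lower in knockout). Tead2 and Tead4, the TEAD genes not described above, had log2 changes of −0.06 and −0.16.

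The other lists of partners had 0 calls too. Among 5 tested GATA genes and cofactors (median log2 0.25), Zfpm1, a GATA cofactor gene, was at 11.6 to 12.6 CPM in wild-type and 14.2 to 14.7 CPM in knockout (edgeR adjusted p = 0.651), and Gata5, Gata3 and Zfpm2 had log2 changes of 0.87, 0.58 and −0.24. Of 12 other Kruppel-like factor genes tested, 7 were positive and 5 negative (median 0.02, −0.03 with the replicate block, −0.13 without knockout replicate 2 and −0.07 without wild-type replicate 3), with log2 changes of 0.36 for Klf2, 0.38 for Klf7, −0.28 for Klf11 and −0.14 for Klf3.

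Contractile target genes of the myocardin and SRF pair overlapped between genotypes. Of 25 tested, 8 were positive and 17 negative, 0 passed, the groups of all 25 overlapped, and the median log2 change was −0.06, against 0.01 over all genes. Their summed level was 58436, 57419 and 50824 CPM in wild-type and 60707, 70211 and 29666 CPM in knockout replicates 1, 2 and 3. Without knockout replicate 3 the median was 0.23, and without knockout replicate 2 it was −0.31. Cald1, for the actin-binding protein caldesmon, had the smallest p of the list, at 2515 ± 506 and 1759 ± 617 CPM (log2 −0.52 ± 0.31, edgeR adjusted p = 0.758). Smtn, Kcnmb1 and Itga8 followed, with log2 changes of 0.34, −0.27 and −0.45.

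Cytoskeletal targets of SRF and the myocardin-related factors (14 tested, 7 positive and 7 negative, median −0.01, and −0.03 to 0.07 with 1 library left out) and growth-signal targets (13 tested, 4 positive and 9 negative, median −0.10, and 0.03 without knockout replicate 3) also had 0 calls. Filip1l, Myh9 and Tagln2 were among those of the first with the smallest p, with log2 changes of −0.57, 0.19 and 0.22. In the second, Egr2, an early growth response gene, was at 2.55 to 4.09 CPM in wild-type and 4.10 to 7.07 CPM in knockout, barely apart (edgeR adjusted p = 0.613), and Junb, Mcl1 and Btg2 had log2 changes of −0.26, −0.21 and −0.18.

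CArG boxes stood in the promoter windows of 3 of the 20 contractile targets that had a window (Myl9, Vcl and Fhl1), 3 of 12 cytoskeletal targets (Actg1, Cnn2 and Filip1l) and 1 of 9 growth-signal targets (Egr2, with 2 different boxes, of which 1 is shown). Boxes farther from the start site, known for several contractile genes, are outside these windows. Every box found was CC, then only A or T bases, then GG. Boxes that depart from this form are not among the matches, so a window counted without a box may still hold one. The stretches are shown to compare the element between genes, with the box in capitals, at chr2:156775293-156775322 (plus strand) for Myl9, chr14:20929161-20929190 (plus) for Vcl, chrX:56779571-56779600 (plus) for Fhl1, chr11:120348566-120348595 (minus) for Actg1, chr10:79988534-79988563 (plus) for Cnn2, chr16:57549170-57549199 (plus) for Filip1l and chr10:67537787-67537816 (plus) for Egr2.
Myl9: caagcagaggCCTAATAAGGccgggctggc
Vcl: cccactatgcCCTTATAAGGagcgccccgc
Fhl1: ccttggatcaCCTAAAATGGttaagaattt
Actg1: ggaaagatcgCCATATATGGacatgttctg
Cnn2: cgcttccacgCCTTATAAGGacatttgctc
Filip1l: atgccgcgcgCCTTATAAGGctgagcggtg
Egr2: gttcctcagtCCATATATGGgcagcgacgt

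Vcl, Cnn2 and Filip1l carry the same box, CCTTATAAGG, and none of them passed. Vcl, which encodes vinculin of the dense plaque, was at 291.9, 258.0 and 281.0 CPM in wild-type and 159.3, 373.2 and 157.4 CPM in knockout replicates 1, 2 and 3 (log2 −0.27 ± 0.34). Cnn2, for a calponin of non-muscle and smooth muscle cells, was at 279.4, 268.7 and 237.5 CPM and at 373.8, 362.7 and 165.1 CPM (log2 0.20 ± 0.30). Both were lowest in knockout replicate 3, as Srf was, while knockout replicate 1 was low for Vcl and high for Cnn2. Filip1l was at 318.9, 245.5 and 238.3 CPM and at 173.9, 259.0 and 106.1 CPM (log2 −0.57 ± 0.31, edgeR adjusted p = 0.707). Myl9, the gene of a myosin regulatory light chain, was at 3150, 2907 and 2536 CPM in wild-type and 3588, 3118 and 1606 CPM in knockout, and Fhl1, for a LIM-domain protein, ranged from 1230 to 1593 and from 725.3 to 1750 CPM, both lowest in knockout replicate 3. Actg1, for cytoplasmic actin, was not: it ranged from 1725 to 2024 CPM in wild-type and from 1509 to 1998 CPM in knockout, with its lowest value in knockout replicate 2.

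Targets of YAP and TEAD also had 0 calls. Of 20 tested, 9 were positive and 11 negative, and the median was −0.01 (0.02 with upper-quartile scaling, 0.18 without knockout replicate 1 and −0.11 without knockout replicate 2). Tgfb2, a transforming growth factor gene, had the smallest p: it was at 140.7, 147.6 and 223.5 CPM in wild-type and 395.1, 558.7 and 652.7 CPM in knockout replicates 1, 2 and 3, without overlap (log2 1.65 ± 0.26, edgeR adjusted p = 0.143). Ccn2, for a matricellular protein and a much-used readout of YAP, was at 338.7, 223.3 and 312.1 CPM in wild-type and 193.7, 229.8 and 104.4 CPM in knockout, with overlap (log2 −0.73 ± 0.30, edgeR adjusted p = 0.567). Ajuba and Nuak2 had log2 changes of 0.53 and 0.46, without overlap and without passing (edgeR adjusted p = 0.534 and 0.513). Groups did not overlap for 4 of the 20, all higher in knockout, against 14.2% of all tested genes (7.22% higher in knockout).

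**Figure D5:**
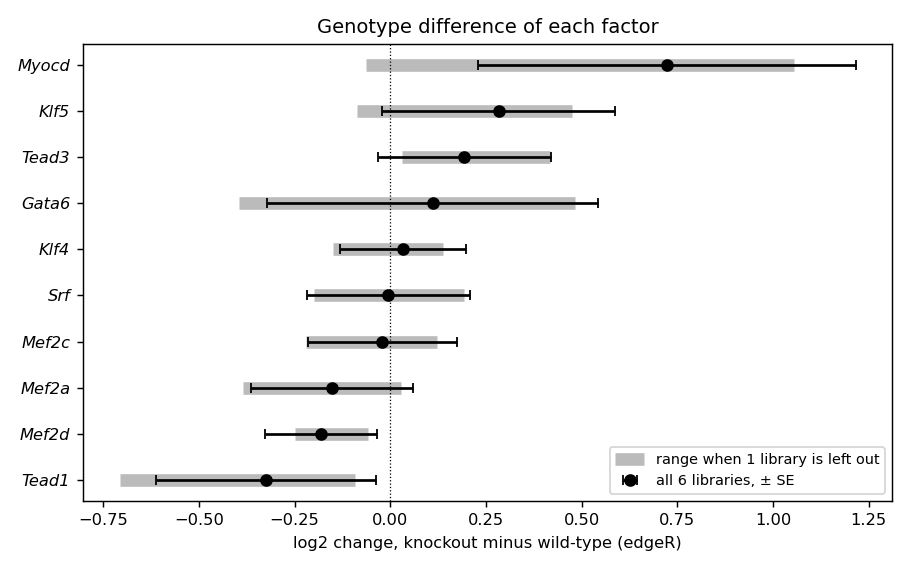
Log2 change of each gene, knockout minus wild-type, from edgeR with all 6 libraries (points, bars ± SE) and the range when any 1 library is left out (grey bars). The grey bars of Myocd, Klf5, Gata6, Klf4, Srf, Mef2c and Mef2a cross 0, and those of Tead3, Mef2d and Tead1 do not.

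The lowest count of any of the 10 genes was 325, for Gata6 in knockout replicate 3, where counting error alone is 5.55%. Annotated genes on the opposite strand share exon bases with Mef2a (Lysmd4, with 9.28% of the counts of Mef2a), Gata6 (5.25%) and Mef2d (0.638%), and while the library kit was directional, no source used here says whether counting used strand, so part of those counts is uncertain.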

How the data were processed

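The authors deposited raw counts per Ensembl gene for each of the 6 libraries and 1 table of normalized values, a signal equal to the deposited count multiplied by a single factor for each library, 0.804 to 1.26 (relative deviation at most 5.29e-10 at 100 counts or more). FastQC 0.73, HISAT2 2.2.1, HTSeq 0.9.1, DESeq2 2.11.40.7 and mm10 are named, with no role or order, per the submitters' processing notes. Symbols and positions (starts printed counting from 1) are those of the deposited table, and exon lengths and overlaps come from GENCODE M21, which held 54804 of 55055 identifiers.

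edgeR 4.0.16 in R 4.3.3 was run on the counts (filterByExpr, TMM, quasi-likelihood, genotype as the term, 19599 genes, biological coefficient of variation 26.3%). The alternatives comprised upper-quartile or RLE scaling, testing without a filter, a stricter filter (1 CPM in 3 libraries), DESeq2 1.42.0, limma-voom (limma 3.58.1), a robust prior, limma on log2(deposited normalized value + 1), a replicate block and leaving out each library. The scripts were tested on simulated data. Ratios were compared by exact permutation over samples, and list scores used log2(CPM + 0.5).

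The genes and lists were chosen with earlier results of these data known. Each list names up to 4 genes with the smallest p at a mean CPM of at least 1, plus Mrtfa, Mrtfb, Yap1, Wwtr1, Tead2 and Tead4; genes with a CArG box and marker genes were added after their values were seen. One erythroid marker did not match a symbol. A gene that this rule names is not reported here.

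No pair of libraries of 1 genotype looked like a repeat deposit (chi-square divided by its degrees of freedom was 35.3 to 232). Deviations from the group mean correlated across genes at 0.147, 0.196 and 0.217 for libraries with the same replicate number and at −0.223 to 0.0611 for the others. The numbers were therefore taken to pair the libraries, from the data and not from the labels. With 3 libraries per genotype few matchings are possible, so this pairing is uncertain. A blocked fit on the numbers is given where it changes a call, and some log2 changes from it are printed too. Log2 changes given with an SE are from the fit without the block.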

Additional observations from a re-analysis of the deposited data

How the results depend on the processing

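None of the 10 factor genes passed under any alternative run: 0 higher and 0 lower with each scaling, filter and tool, and 0 to 0 with any 1 library left out. The background did move. Genes higher past the threshold numbered 0 by edgeR, 4 with upper-quartile scaling, 47 with no filter on low counts, 247 by DESeq2 and 2 with the replicate block (a paired fit on the replicate number), and 0 to 3 with 1 library left out (3 without knockout replicate 3, 1 without knockout replicate 1 and 1 without wild-type replicate 3). Genes lower numbered 4, against 8 with upper-quartile scaling, 34 with no filter and 135 by DESeq2, and 1 to 4 with 1 library left out (1 without wild-type replicate 1 and 1 without wild-type replicate 2). The cause was not tested. The block changed no call among the 10 genes and turned the log2 change of Gata6 to −0.069. With it the log2 change was 0.54 for Myocd, −0.40 for Tead1 and 0.25 for Klf5.

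Signs near 0 turned for Srf (0.030 with upper-quartile scaling, 0.0070 with a CPM of at least 1 in 3 libraries), Mef2c (0.011 with upper-quartile scaling) and Gata6 (−0.026 by limma-voom, −0.090 by limma on the normalized values). With 1 library left out, log2 changes ran from −0.064 to 1.05 for Myocd, −0.20 to 0.19 for Srf, −0.39 to 0.028 for Mef2a, −0.22 to 0.12 for Mef2c, −0.40 to 0.48 for Gata6, −0.15 to 0.14 for Klf4 and −0.086 to 0.47 for Klf5. Log2 differences relative to smooth muscle markers ran from −0.093 to 0.19 for Srf, −0.45 to 0.30 for Mef2a, −0.28 to 0.40 for Mef2c, −0.54 to 0.23 for Mef2d, −0.62 to 0.15 for Tead1, −0.24 to 0.20 for Gata6, −0.43 to 0.47 for Klf4 and −0.34 to 0.84 for Klf5, and that of the ratio of Mef2d to Mef2a from −0.089 to 0.15.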
